A study of Mus musculus with 11 samples.

Results

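The genes described here are 50 cell cycle and mitosis genes, chosen by symbol from the 25677 genes counted in mouse kidney, and all 50 were listed. Kidney RNA was sequenced from 3 female C57BL/6J control mice (Ctr), 4 untreated female MRL/lpr mice (Lpr) and 4 female MRL/lpr mice injected daily into the peritoneum with DNase I, an enzyme that digests DNA outside cells, from week 17 (DNase). All mice were 21 weeks old, and each library came from 1 mouse. The Fas gene is mutated in MRL/lpr mice, which develop nephritis resembling that of lupus, whereas the controls are of another strain, so strain and disease cannot be told apart in any comparison with Ctr. Levels are given as CPM, counts scaled to a common library size by TMM over the 11 libraries, each of which held between 33469858 and 38460873 counts.

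A dividing cell first commits to replication through cyclin E and the E2F factors, then licenses and copies its DNA, and finally condenses, aligns and separates its chromosomes under cyclin B, its kinase Cdk1 and the Aurora and Polo kinases. Most of these genes are transcribed in dividing cells and silent in resting ones, and cells of the adult kidney divide rarely. In a bulk library, fewer dividing cells and less RNA per dividing cell cannot be told apart.

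Levels of single genes in Ctr spanned a wide range. Per gene length, the highest was Pcna, the sliding clamp of the replication fork, at 31.8 ± 1.73 FPKM (counts per gene length and library size, SD, n = 3), and the lowest was the kinetochore gene Cenpf at 0.0497 ± 0.0314 FPKM (SD, n = 3). Pcna lay between 40.1 and 42.4 CPM in Ctr and between 36.5 and 43.0 CPM in 7 of the 8 MRL/lpr kidneys, with 72.2 CPM in Lpr 3. Many mitotic genes were near the counting limit in Ctr. Bub1 and Ttk had 2 counts in the lowest kidney, and Cdc25c, the phosphatase that activates Cdk1, had 1 and was too low to be tested against Ctr. Stretches of at least 500 bases at 95% identity or more with pseudogenes make the counts of Ccnb1, Cdc6, Pbk, Pcna and Uhrf1 uncertain, and exons shared with a counted gene on the opposite strand do so for 11 members, Ccna2, Kif20a and Prc1 among them, since the strand setting of the counting is not given in the sources used here.

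Untreated MRL/lpr kidneys had more RNA of the cell cycle genes than control kidneys. Of 49 members tested, 23 were higher in Lpr and 0 lower by edgeR's quasi-likelihood test at an adjusted p under 0.05, where 7.27% of all 16074 genes were higher and 2.92% lower. With the study's additional threshold of a log2 fold change above 2, 11 members were higher, against 4.65% of all genes. The median log2 fold change was 1.65 over the members and 0.03 over all genes, and 48 of the 49 members were above 0. At an unadjusted p under 0.05, 41 members were higher and 0 lower, where 13.7% of all genes were higher and 7.7% lower. The number called depended on single kidneys. It fell to 7 without Ctr 1 and to 7 without Ctr 2, and was 14 without Ctr 3, 12 without Lpr 1 and 12 without Lpr 2, while the median stayed between 1.41 and 2.01. A fit with fewer kidneys has less power for every gene, and the share of all genes called in these fits is not given here. Of the 23 members called, 6 (Mki67, Melk, Aurkb, Kif2c, Mcm3 and Tk1) were called with any 1 of the 7 kidneys left out, and 17 lost the call in at least 1 such fit.

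Mki67, which encodes the proliferation antigen Ki-67, had 3.64, 1.37 and 4.67 CPM in the 3 Ctr kidneys and 17.6, 17.1, 12.1 and 14.6 CPM in the 4 Lpr kidneys. The groups did not overlap, and the log2 fold change was 2.26 (SE 0.40, adjusted p = 0.00789 from edgeR). Top2a, the topoisomerase that untangles sister chromatids, had 3.15, 1.40 and 5.60 CPM in Ctr and 17.7, 17.2, 17.1 and 9.91 CPM in Lpr. Lpr 4 was the lowest of the Lpr kidneys but above every control, and the log2 fold change was 2.20 (SE 0.45, adjusted p = 0.0165 from edgeR). This call was lost without Ctr 1, with a log2 fold change of 2.15.

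The largest change among the members was that of Melk, a kinase of proliferating cells. It had 0.297, 0.128 and 0.330 CPM in Ctr and 4.13, 4.17, 2.93 and 1.44 CPM in Lpr, a log2 fold change of 3.64 (SE 0.54, adjusted p = 0.00359 from edgeR). Kif2c, the kinesin that dismantles microtubules at the centromere, had 0.324, 0.128 and 0.270 CPM in Ctr and 2.54, 1.72, 2.75 and 0.906 CPM in Lpr, a log2 fold change of 3.02 (SE 0.54, adjusted p = 0.00867 from edgeR). In both genes the groups did not overlap.

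Aurkb, the kinase of the chromosomal passenger complex, had 0.539, 0.351 and 0.420 CPM in Ctr and 3.67, 2.73, 5.58 and 1.64 CPM in Lpr. Its log2 fold change was 2.96 (SE 0.49, adjusted p = 0.0060 from edgeR). Bub1, a kinase of the spindle checkpoint, had 0.216, 0.0638 and 0.479 CPM in Ctr and 1.47, 1.61, 2.78 and 1.13 CPM in Lpr, with a log2 fold change of 2.78 (SE 0.63, adjusted p = 0.0260 from edgeR). Ndc80, which couples the kinetochore to microtubules, had 0.297, 0.128 and 0.150 CPM in Ctr and 1.13, 0.989, 1.92 and 0.850 CPM in Lpr, with a log2 fold change of 2.65 (SE 0.51, adjusted p = 0.0117 from edgeR). Every Lpr kidney was above every control in these 3 genes. The calls of Bub1 and Ndc80 were lost without Ctr 2, and also without Ctr 1 or Lpr 2 for Bub1 and without Ctr 3 for Ndc80.

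**Figure D1:**
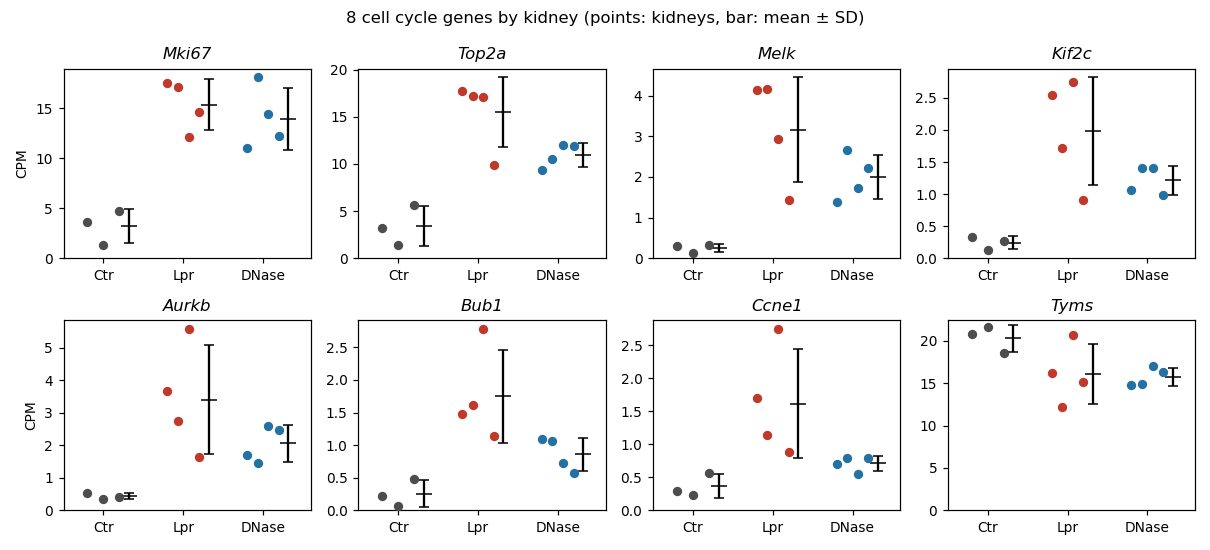
CPM of 8 cell cycle genes in each kidney (points) by group, with the mean ± SD beside the points. Mki67 and Top2a lay above every control in all 8 MRL/lpr kidneys, whereas Tyms was not higher in them.

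Fold changes spanned a wide range over the steps of the cycle. Both genes of chromosome structure, Mki67 and Top2a, were called, and so were 6 of the 10 tested genes of cyclins and mitotic entry, 3 of 5 of the centromere and kinetochore and 4 of 8 of spindle motors and midzone. In the first of these, the cyclins Ccnb1 and Ccnb2 rose by 1.96 and 2.32 on the log2 scale, their kinase Cdk1 by 2.26, Foxm1, the transcription factor of mitotic genes, by 1.44 and the Polo kinase Plk1 by 1.61. At the kinetochore, Cenpe rose by 1.59 and Cenpf by 2.14, and on the spindle, Kif11, the motor that pushes its poles apart, rose by 1.69, the bundling factor Prc1 by 1.97 and the assembly factor Tpx2 by 1.93.

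Only 1 of 5 genes of the checkpoint and the anaphase-promoting complex (Bub1) and 1 of 3 of the passenger complex (Aurkb) were called. Birc5, the survivin subunit of that complex, had a log2 fold change of 2.59 but missed the threshold (adjusted p = 0.0580 from edgeR). It had 10.7 CPM in Lpr 3 and between 1.53 and 3.76 CPM in the other Lpr kidneys.

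Of the 9 genes of replication licensing and the fork, 4 were called. Cdc6, which loads the helicase, rose by 1.75 on the log2 scale, the helicase subunits Mcm3 and Mcm5 by 1.29 and 0.98, and Uhrf1, which maintains DNA methylation at the fork, by 1.66. The median of the 9 was 0.62, against 1.78 for cyclins and mitotic entry, and the helicase subunit Mcm2 and Pcna had log2 fold changes of 0.20 and 0.22 without a call. Of the nucleotide enzymes, the thymidine kinase Tk1 rose by 1.65, whereas Rrm2, the small subunit of ribonucleotide reductase, had 0.69 and Tyms, thymidylate synthase, -0.33, neither called. Among the G1/S genes, cyclin E1 (Ccne1) rose by 2.15, and Ccne2, E2f1 and E2f8 were not called. The calls of Ccne1 and Cdc6 were both lost when any 1 of Ctr 1, Ctr 2, Ctr 3, Lpr 1 or Lpr 2 was left out, with adjusted p from edgeR between 0.0584 and 0.168 for Ccne1 and between 0.0787 and 0.140 for Cdc6. That of Ccne1 was also lost with limma on log2(FPKM + 1) (adjusted p = 0.0703) and that of Cdc6 with the replicate block (adjusted p = 0.0600 from edgeR). The difference between steps was not itself tested.

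**Figure D2:**
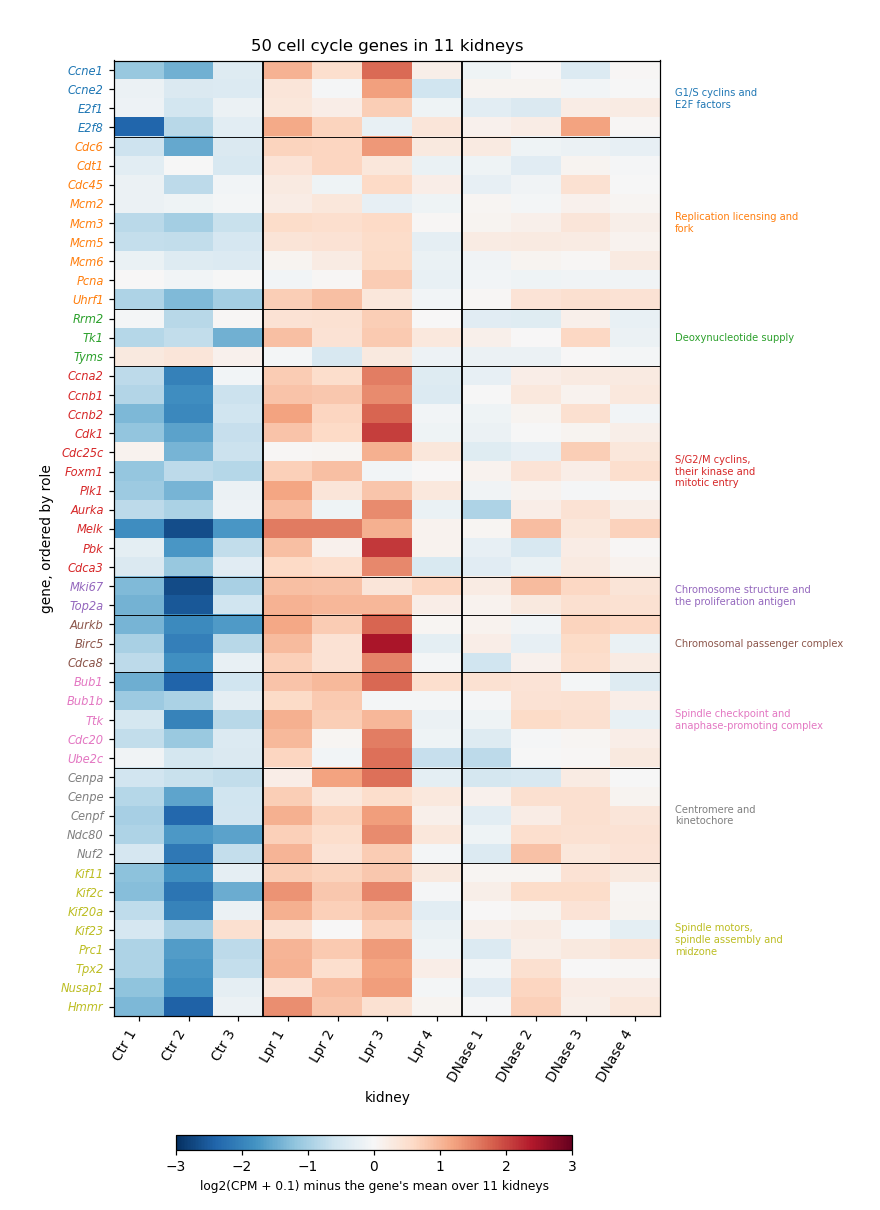
Level of each of the 50 genes (rows, ordered and coloured by role) in each of the 11 kidneys (columns) as log2(CPM + 0.1) minus the mean of the gene over all kidneys. Control kidneys are mostly blue, with Ctr 2 the lowest of all in 38 genes, and Lpr 3 is the highest of all in 33 genes.

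The kidneys of a group were not alike. The mean log2 CPM over the 50 genes was 0.69, 0.07 and 0.96 in Ctr, 2.29, 2.05, 2.57 and 1.51 in Lpr, and 1.42, 1.69, 1.82 and 1.67 in DNase. Lpr 4 was the lowest of its group in 43 of 50 genes and within the range of the DNase kidneys in this mean.

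Lpr 3 stood apart in gene length. Over 16499 genes, its counts fell by 0.393 log2 units per doubling of gene length relative to the mean of the 11 kidneys, while the slopes of the other 10 lay between -0.0427 and 0.0767. In Lpr 3 the shorter members, those under the median length of 3262 bases, had a median of 1.26 above the mean of the kidneys on the log2 scale, and the longer ones 0.70. Ube2c, the shortest member at 931 bases, had 15.4 CPM in Lpr 3 and 2.95 to 7.60 CPM in the other Lpr kidneys, whereas Mki67, at 10257 bases, was lowest of its group there. Long members could also be high, as Cdk1, at 4349 bases, had 17.9 CPM in Lpr 3 and 3.80 to 7.60 CPM in the others. The part of length in the results was not tested beyond refitting them. Without Lpr 3, again 23 members were called against Ctr, and with the fitted trend of each kidney over gene length as an offset, 25. These counts concern Lpr against Ctr alone, where the median log2 fold change was 1.63 over the shorter members and 1.69 over the longer ones. Between DNase and Lpr it was -0.65 over the shorter members and -0.43 over the longer ones.

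**Figure D3:**
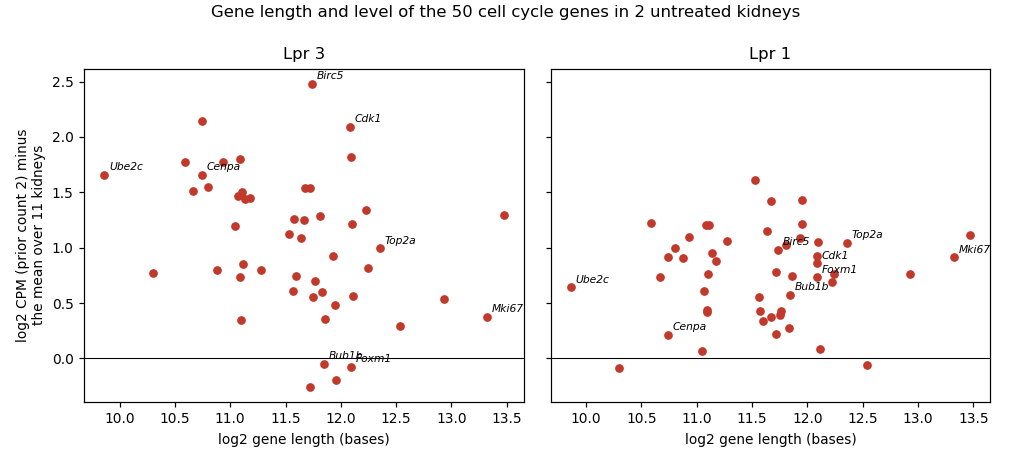
Level of each of the 50 genes in Lpr 3 (left) and Lpr 1 (right), as log2 CPM minus the mean over 11 kidneys, against the log2 length of the gene in bases. In Lpr 3 the short genes lie higher than the long ones, with a correlation of -0.36 over the 50 genes, against 0.10 in Lpr 1.

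Genes of late G2 and mitosis share promoter elements, the CHR element bound by the MuvB complex and the CCAAT box bound by NF-Y. Promoters of 250 bases before to 50 after the start were taken from RefSeq (GRCm38.p6), where 42 of the 50 members had 44 promoters. A CHR element, spelled TTTGAA or TTTAAA on either strand, was present in 72.7% of the promoters of members (95% Wilson interval 58.2 to 83.7%) and in 27.6% of all 32851 promoters. A CCAAT sequence on either strand was present in 72.7% (58.2 to 83.7%) of the promoters of members and 37.4% of all, and both elements in 61.4% (46.6 to 74.3%) and 10.7%. An E2F site, spelled TTTCCCGC, TTTGGCGC, TTTCGCGC or TTTGCCGC, was present in 15.9% (7.93 to 29.4%) and 2.26%. Paired promoters of 1 gene share sequence, so the intervals are too narrow, and a match in letters does not show that a factor binds.

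Both elements were present in the promoters of 26 members. The 250 bases before the start are shown for the 5 of these with the smallest p between Lpr and Ctr, all called higher in Lpr, with each CHR element, CCAAT sequence and E2F site in capitals.
Mki67, chr7:135716380-135716629, minus strand: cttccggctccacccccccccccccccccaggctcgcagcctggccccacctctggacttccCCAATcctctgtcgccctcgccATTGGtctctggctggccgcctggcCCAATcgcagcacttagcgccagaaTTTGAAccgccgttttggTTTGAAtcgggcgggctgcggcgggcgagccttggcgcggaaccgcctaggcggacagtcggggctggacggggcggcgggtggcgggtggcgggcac
Uhrf1, chr17:56304063-56304312, plus strand: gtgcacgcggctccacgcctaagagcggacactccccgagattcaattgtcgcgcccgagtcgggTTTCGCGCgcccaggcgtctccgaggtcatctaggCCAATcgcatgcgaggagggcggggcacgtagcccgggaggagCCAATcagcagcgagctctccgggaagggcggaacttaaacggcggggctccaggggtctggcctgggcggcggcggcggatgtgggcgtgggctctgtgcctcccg
Top2a, chr11:99024190-99024439, minus strand: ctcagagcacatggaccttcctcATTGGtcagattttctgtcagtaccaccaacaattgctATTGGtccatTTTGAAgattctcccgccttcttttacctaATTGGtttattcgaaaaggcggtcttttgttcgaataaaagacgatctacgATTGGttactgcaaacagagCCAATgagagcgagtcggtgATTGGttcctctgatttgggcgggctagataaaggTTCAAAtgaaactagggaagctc
Prc1, chr7:80294201-80294450, plus strand: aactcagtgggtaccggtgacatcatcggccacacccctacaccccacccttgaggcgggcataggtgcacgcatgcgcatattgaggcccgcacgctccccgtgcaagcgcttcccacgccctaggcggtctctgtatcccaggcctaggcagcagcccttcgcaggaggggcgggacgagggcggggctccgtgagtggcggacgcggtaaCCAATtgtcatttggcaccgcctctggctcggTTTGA
Ccnb2, chr9:70421555-70421804, minus strand: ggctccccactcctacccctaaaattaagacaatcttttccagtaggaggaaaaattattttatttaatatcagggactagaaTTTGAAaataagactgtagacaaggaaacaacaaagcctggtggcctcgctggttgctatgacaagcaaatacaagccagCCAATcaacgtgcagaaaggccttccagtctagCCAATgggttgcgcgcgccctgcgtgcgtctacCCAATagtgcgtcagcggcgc
The promoter of Mki67 held CHR elements whose first bases lie at -116 and -98 from the start, and 3 CCAAT sequences. That of Top2a held 6 CCAAT sequences and CHR elements at -179 and -23. The CHR element of Prc1 begins at -5, and its last base lies past the stretch shown. In Ccnb2, 1 CHR element lies before the start and 1 after it, and that of Uhrf1 lies after the start. In GENCODE M21, the stretches of Mki67, Uhrf1, Top2a and Ccnb2 overlap no exon, and that of Prc1 shares 1 base with an exon of Prc1 and lies in an exon of a transcript of the neighbouring gene Rccd1. By the gene ends of RefSeq, those of Mki67, Top2a and Prc1 reach 71, 10 and 6 bases into the gene, and that of Uhrf1 lies inside it.

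Treated MRL/lpr kidneys also had more RNA of these genes than control kidneys. Of 49 members tested between DNase and Ctr, 22 were higher and 1 was lower by edgeR, where 13.1% of all 16100 genes were higher and 8.61% lower. With a log2 fold change above 2, 5 were higher (Melk, Kif2c, Aurkb, Ndc80 and Mki67), against 4.56% of all genes. The median log2 fold change was 1.03, and 0.00 over all genes, and it was 1.43 without Ctr 3. Between 17 and 29 members were called with single kidneys left out, where the share of all genes called is not given here. The controls are the same animals as in the comparison above, so the 2 lists share their error.

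Mki67 had 11.0, 18.1, 14.4 and 12.2 CPM in the 4 DNase kidneys, above all 3 controls, with a log2 fold change of 2.10 (SE 0.36, adjusted p = 0.00293 from edgeR). Top2a had 9.31, 10.5, 12.03 and 11.9 CPM, also above all controls, with a log2 fold change of 1.69 (SE 0.37, adjusted p = 0.0109 from edgeR). Melk had 1.39, 2.66, 1.74 and 2.21 CPM, and its log2 fold change of 2.97 (SE 0.40, adjusted p = 0.000726 from edgeR) was again the largest.

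Kif2c rose by 2.31 on the log2 scale, Aurkb by 2.22 and Ndc80 by 2.12. Ccne1 and Cdc6, called in Lpr, had log2 fold changes of 0.96 and 0.84 here and were not called. Birc5 rose by 1.40 and Bub1b, a checkpoint kinase, by 1.03, both of which had missed the threshold in Lpr. The helicase subunit Mcm6 rose by 0.41. Of the 23 members called in either direction, 15 were called with any 1 of the 7 kidneys left out, and 8 lost the call in at least 1 such fit, Birc5, Bub1b and Mcm6 among them.

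Tyms was the single member lower in DNase than in Ctr. It had 20.8, 21.6 and 18.5 CPM in Ctr and 14.8, 14.9, 17.02 and 16.3 CPM in DNase. The groups did not overlap, and the log2 fold change was -0.36 (SE 0.10, adjusted p = 0.0276 from edgeR). This call was lost when any 1 of Ctr 1, Ctr 2, DNase 1, DNase 2 or DNase 4 was left out. In Lpr, Tyms lay between 12.2 and 20.7 CPM and overlapped the controls.

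**Figure D4:**
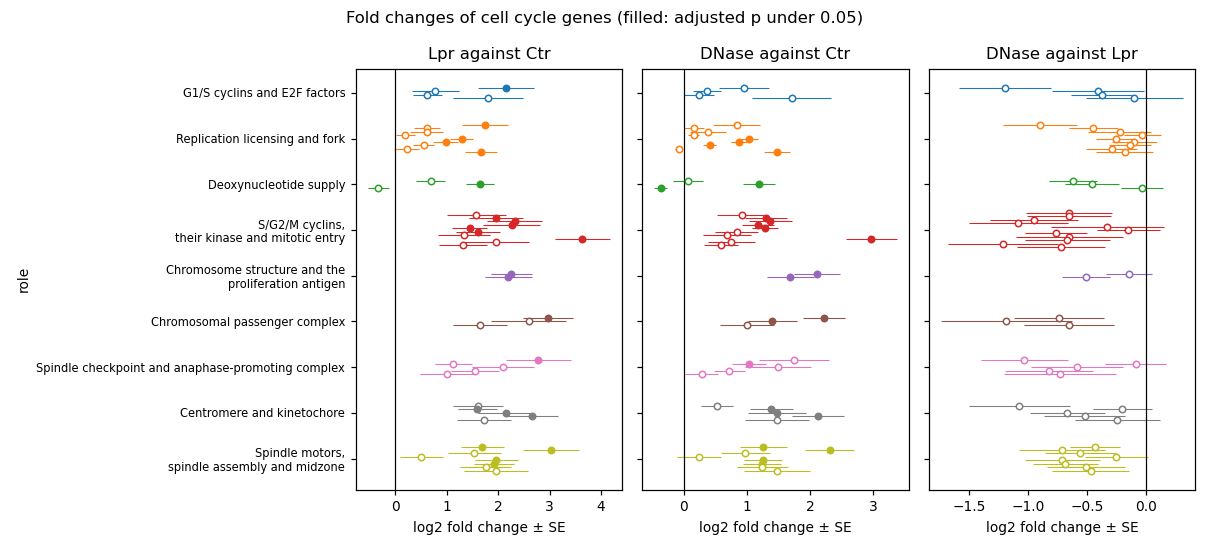
Log2 fold change ± SE of each member in the 3 comparisons, grouped by role, where filled points passed an adjusted p of 0.05 by edgeR. In both comparisons with Ctr nearly all points lie above 0, and between DNase and Lpr all 50 lie below 0 with none filled.

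Between treated and untreated MRL/lpr kidneys no member was called. Of 50 members tested, 0 were higher and 0 lower by edgeR, as were 0% and 0% of all 15832 genes. DESeq2 called 0 members too, and the share of all genes that it called at an adjusted p under 0.05 is not given here. The study, which names DESeq2, reported some genes higher and some lower in DNase than in Lpr. At an unadjusted p under 0.05, 11 members were lower in DNase and 0 higher by edgeR, where 3.43% of all genes were lower and 2.17% higher, and 17 were lower by DESeq2, where 3.52% of all genes were. All 50 log2 fold changes were below 0, with a median of -0.54 and a range from -1.21 (Pbk, a mitotic kinase) to -0.03 (Mcm2), while 52.9% of all genes were below 0 and their median was -0.02. The members move together in these 8 kidneys, so their number does not count as independent evidence of a lower level.

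The size of the difference also depended on single kidneys. Without Lpr 3 the median was -0.34, with 46 of 50 below 0 and 4 lower at an unadjusted p under 0.05, as were 5.98% of all genes. Without Lpr 4, the Lpr kidney with the lowest levels, the median was -0.72 and 29 were lower at that p, against 5.58% of all genes. With the other kidneys left out in turn, between 5 and 11 were lower, and between 2 and 4.38% of all genes.

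The member with the smallest p was Ccne1, with 1.70, 1.15, 2.75 and 0.878 CPM in Lpr and 0.697, 0.786, 0.555 and 0.798 CPM in DNase. Every DNase kidney was below every Lpr kidney, and the log2 fold change was -1.19 (SE 0.39, unadjusted p = 0.0126, adjusted p = 0.820 from edgeR). Rrm2 had 10.6, 10.7, 13.0 and 7.87 CPM in Lpr and 6.14, 6.07, 8.72 and 6.64 CPM in DNase. Only DNase 3 lay above the lowest Lpr kidney, and the log2 fold change was -0.62 (SE 0.21, unadjusted p = 0.0143, adjusted p = 0.820 from edgeR). Cdc6 had 1.53, 1.51, 2.42 and 1.16 CPM in Lpr and 1.14, 0.840, 0.807 and 0.772 CPM in DNase, without overlap, and a log2 fold change of -0.90 (SE 0.31, unadjusted p = 0.0168, adjusted p = 0.820 from edgeR).

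Neither proliferation marker was called. Top2a had a log2 fold change of -0.51 (SE 0.21, adjusted p = 0.854 from edgeR), and Mki67 -0.14 (SE 0.20, adjusted p = 0.883 from edgeR), with overlapping groups in both. By role, the medians lay between -0.22 for replication licensing and fork and -0.73 for the chromosomal passenger complex.

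Leukocyte RNA rose with the same groups. The summed level of 15 pan-leukocyte genes was 158 to 220 CPM in Ctr, 682 to 1136 CPM in Lpr and 575 to 985 CPM in DNase, and 13 of the 15 were called higher in Lpr and all 15 in DNase. Ptprc, the leukocyte antigen CD45, ranged from 6.82 to 11.9 CPM in Ctr and from 44.9 to 109 CPM over both MRL/lpr groups. The 16 macrophage and monocyte genes summed to 219 to 312 CPM in Ctr, 1413 to 2841 CPM in Lpr and 1089 to 1999 CPM in DNase, and the 15 T cell genes to 11.3 to 17.3, 106 to 246 and 112 to 173 CPM. The 13 genes of injured and repairing tubules summed to 2286 to 2889 CPM in Ctr, 3053 to 13984 CPM in Lpr and 2766 to 3558 CPM in DNase. The lists of marrow cells moved less evenly. The 15 neutrophil genes summed to 5.48 to 14.7 CPM in Ctr, 20.5 to 53.7 CPM in Lpr and 18.7 to 33.1 CPM in DNase, with 3 of 10 tested called higher in Lpr and 4 of 9 in DNase. The 13 erythroid and megakaryocyte genes summed to 1037 to 1627, 1224 to 3192 and 1100 to 1732 CPM, with 0 of 9 higher and 1 lower in Lpr and 1 each way in DNase, and the 8 progenitor genes to 64.9 to 90.3, 75.6 to 97.4 and 61.8 to 86.6 CPM, with 2 of 5 higher in both. Of single genes that define these cells, Ly6g of neutrophils and Gata1 of erythroid cells had 3 counts or fewer in every kidney. The part of these cells in the cell cycle RNA was not tested beyond the comparison that follows.

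Levels were then compared relative to leukocyte RNA, with the mean log2 CPM of the pan-leukocyte list added to the offset of each library in the edgeR fit. On this scale a gene whose RNA rises less than leukocyte RNA has a negative value, so 91.6% of all genes were lower in Lpr than in Ctr and 1.95% higher. The list mean was taken as known, so the p-values on this scale leave out its own error. An error in it shifts all genes of a library together. Of the 49 members, 16 were lower and 1 was higher, and the median log2 difference was -0.71, against -2.34 over all genes. The one higher was Melk, with a log2 difference of 1.28 (SE 0.55, adjusted p = 0.0288 from edgeR). This call was lost with the T cell list (0.48), the macrophage list (0.80) or Ptprc (0.87) as the reference, and when Ctr 1, Ctr 2 or Lpr 1 was left out. Mki67 and Top2a were at -0.08 and -0.14 and were not called. Relative to Ptprc counts, Mki67 was 0.305, 0.201 and 0.540 in Ctr and 0.315, 0.158, 0.269 and 0.213 in Lpr, and the groups overlapped.

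The 16 lower members included the helicase genes Mcm2, Mcm3, Mcm5 and Mcm6, with Pcna, Cdt1, Cdc45, Rrm2 and Tyms. The others were the G1/S genes Ccne2 and E2f1 and the later-acting genes Foxm1, Cdca3, Bub1b, Ube2c and Kif23. The count was 26 in both directions without Lpr 3, 30 with the T cell list as the reference and 27 with the macrophage list.

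In DNase against Ctr, 36 of 49 members were lower relative to leukocyte RNA and 0 higher, where 93.4% of all genes were lower and 2.16% higher. The median was -1.29 over the members and -2.31 over all genes, and 21 were lower without Ctr 3. Mki67 was at -0.17 and Top2a at -0.61 (adjusted p = 0.0531 from edgeR), neither called. Between DNase and Lpr, 0 members were lower and 0 higher on this scale, as were 0.0568% and 0% of all genes. At an unadjusted p under 0.05, 7 members were lower, as were 2.27% of all genes. The median was -0.52, against 0.04 over all genes, and -0.15 with macrophage RNA as the reference, where 35 of 50 members were below 0.

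**Figure D5:**
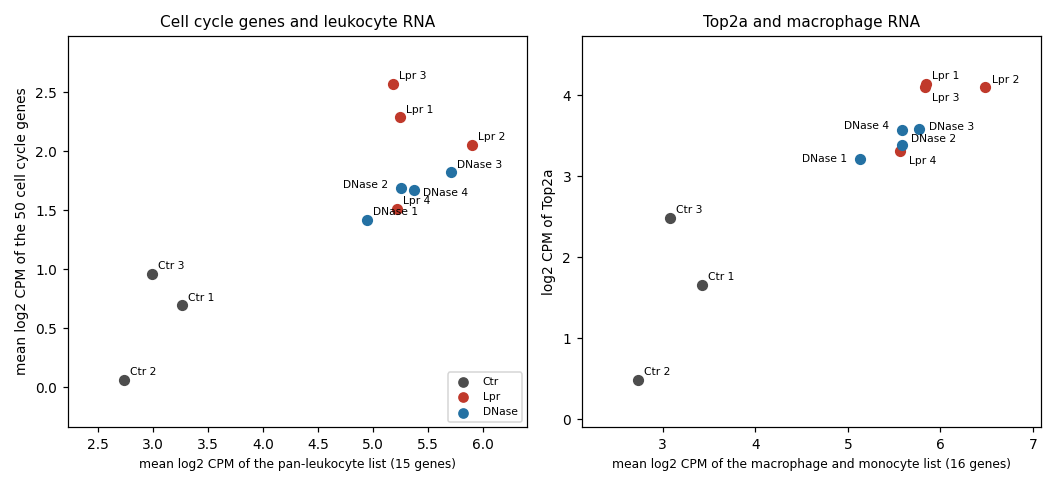
Left, mean log2 CPM of the 50 cell cycle genes against that of the 15 pan-leukocyte genes in each kidney, and right, log2 CPM of Top2a against the mean log2 CPM of the 16 macrophage and monocyte genes. The controls lie at the lower left of both plots, and among the MRL/lpr kidneys Top2a follows the macrophage genes with Lpr 1, Lpr 2 and Lpr 3 at the top.

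Mki67 and Top2a were set against 17 cell type lists over the 8 MRL/lpr kidneys, 34 relations in all, with exact two-sided permutation tests. None passed an adjusted p of 0.05 by Pearson's r. The smallest p was that of Top2a with macrophage and monocyte genes (r = 0.79, permutation p = 0.00149, adjusted p = 0.0506; Spearman's rho = 0.98, permutation p = 0.000397, adjusted p = 0.0135). Without DNase 1 and Lpr 2, the 2 kidneys farthest from the median of the list, r was 0.90 over 6 kidneys. Other lists had an r of similar size with Top2a, at 0.81 for neutrophil genes (permutation p = 0.0169, adjusted p = 0.279), 0.72 for erythroid and megakaryocyte genes (permutation p = 0.0446, adjusted p = 0.279) and 0.70 for injured tubules (permutation p = 0.0695, adjusted p = 0.338), so the relation was not shown to be particular to macrophages. Without the 2 farthest kidneys of each list, these were 0.54, 0.68 and 0.21. Mki67 had r = 0.56 (permutation p = 0.147, adjusted p = 0.499) with the same list and -0.04 without those 2 kidneys. With the pan-leukocyte list, r was 0.41 for Top2a (permutation p = 0.316, adjusted p = 0.597) and 0.45 for Mki67 (permutation p = 0.270, adjusted p = 0.596). The relations pool treated and untreated mice, which with 4 kidneys each are too few to be taken apart.

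Cell cycle genes outside the 50 were taken from lists. Of 62 other mitosis genes tested between Lpr and Ctr, 13 were higher and 1 lower, and of 63 between DNase and Ctr, 17 were higher and 4 lower. Of all genes, 7.27% were higher and 2.92% lower in Lpr, and 13.1% and 8.61% in DNase, so the share of mitosis genes lower in DNase was below that of all genes. Knl1, the scaffold of the outer kinetochore, rose by 2.14 on the log2 scale in Lpr and 1.86 in DNase, and Dlgap5, a spindle factor, by 2.26 and 1.93. The lower gene in Lpr was Pttg1, which encodes securin, the inhibitor of the protease that separates chromatids. It had 44.1, 40.7 and 43.7 CPM in Ctr, between 2.49 and 10.3 CPM in Lpr and between 2.55 and 4.24 CPM in DNase, with log2 fold changes of -3.04 (SE 0.44, adjusted p = 0.00331 from edgeR) and -3.65 (SE 0.17, adjusted p = 2.18e-06 from edgeR). All 8 MRL/lpr kidneys were far below all controls. Hjurp, the chaperone of the centromeric histone, was also lower in DNase than in Ctr, at -0.72 on the log2 scale (adjusted p = 0.00279 from edgeR).

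Of 33 other replication genes tested in Lpr, 1 was higher and 0 lower at an adjusted p under 0.05 by edgeR. Of 32 in DNase, 4 were higher and 1 lower, and no share called was larger than that of all genes. Most nonetheless lay above 0, 29 in Lpr and 25 in DNase. Their median was 0.41 in Lpr and 0.17 in DNase on the log2 scale, and that of all genes 0.03 and 0.00. At an unadjusted p under 0.05, 10 were higher and 1 lower in Lpr, where 13.7% of all genes were higher and 7.7% lower. In DNase, 6 were higher and 2 lower at that p, as were 3003 and 2389 of all 16100 genes. Fen1, the flap nuclease of the lagging strand, rose by 1.08 in Lpr and 0.62 in DNase. Of the replication-linked repair genes, 2 of 13 were higher in Lpr and 3 of 11 in DNase, against 7.27% and 13.1% of all genes.

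Of 21 genes of the G1 cyclins, their kinases and the retinoblastoma and E2F families, 0 were higher and 1 lower in Lpr, and 3 were higher and 2 lower in DNase, which is near the share of all genes. Ccnd1, cyclin D1, lay between 217 and 249 CPM in Ctr, between 259 and 442 CPM in Lpr and between 417 and 575 CPM in DNase. Its log2 fold change was 0.96 in DNase (adjusted p = 0.00058 from edgeR) and 0.66 in Lpr (adjusted p = 0.0880 from edgeR). The lower gene in Lpr was Tfdp2, a partner of the E2F factors, at -0.84.

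Of 19 kinase inhibitors and p53 targets, 2 were higher in Lpr and 4 in DNase, with 0 lower in either. Of all genes, 7.27% were higher and 2.92% lower in Lpr, and 13.1% and 8.61% in DNase. Cdkn1a, the inhibitor p21, had 12.8, 14.2 and 16.4 CPM in Ctr, 25.7, 83.7, 58.7 and 21.1 CPM in Lpr and between 19.9 and 26.6 CPM in DNase. It rose by 0.66 on the log2 scale in DNase (adjusted p = 0.0063 from edgeR) and missed the threshold in Lpr (log2 fold change 1.73, adjusted p = 0.0564 from edgeR), where Lpr 2 and Lpr 3 were far above the other kidneys. Cdkn1c, the inhibitor p57, rose by 0.92 in Lpr and 0.70 in DNase. Cdkn2a, the locus of p16 and p19Arf, had 0, 0 and 0.150 CPM in Ctr, between 0.311 and 2.87 CPM in Lpr and between 0.614 and 4.97 CPM in DNase. Between DNase and Lpr, 0 of the 148 genes of these 5 lists that were tested were called by edgeR, and at an unadjusted p under 0.05, 10 were lower in DNase and 0 higher, where 3.43% of all genes were lower and 2.17% higher.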

How the data were processed

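Total kidney RNA of 11 mice was sequenced, with 1 library per mouse, and groups were taken from the sample labels. The authors deposited whole counts per gene, not normalized, and the FPKM that the authors deposited rests on the same counts, with the library total and a single length for each gene as divisors. The submitters' processing notes name fastp, HTSeq, DESeq2, R 3.2.0 and the build mm10, and the annotation is not given in the sources used here. The number of columns with values that belong to no sample was 0.

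Groups were compared in pairs with edgeR 4.0.16 (quasi-likelihood, filterByExpr, TMM, R 4.3.3) over all genes, with Benjamini-Hochberg adjusted p under 0.05. Alternatives used DESeq2 1.42.0, limma 3.58.1 on log2(FPKM + 1) and log2(FPKM + 0.1), other filters and scalings, a gene length offset, a replicate block and each library left out. A prior count of 2 went into log2 CPM. Replicates are separate mice. Libraries of a group differed by more than sampling noise. Exact permutation tests used scipy 1.17.1, figures matplotlib 3.10.9 and copies blastn 2.17.0 against GENCODE transcripts. The rule for copies was changed from 70% of a transcript to 500 bases after its first result was seen, and the E2F site was also added later. The fits were tested on simulated data, where the changes were larger than those of nearly all members. That test does not show how the fits perform with smaller changes or at lower levels.

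The members, lists and tests were chosen with earlier results of these data known. Full values are given for Mki67, Top2a, the 5 largest changes per direction against Ctr among those called, and the 3 smallest p between DNase and Lpr; others are examples, and some genes of the lists are not reported here by name. Of 6 promoters to be shown by rule, that of Cenpe was left out after it was seen, because 26 of its bases lie in an exon of Cenpe in GENCODE M21.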

Additional observations from a re-analysis of the deposited data

Results flagged for a closer look

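In groups of 4 kidneys, a kidney was marked when its gap to the nearest other exceeded, as a share of the range of the group, Dixon's 95% critical value, which chance gives in about 1 of 20 groups. Of 102 groups checked, 50 genes and their mean in Lpr and in DNase, 4 were marked. Top2a had 9.91 CPM in Lpr 4 and 17.1 to 17.7 CPM in the other Lpr kidneys. In DNase, E2f8, a repressive E2F factor, had 1.74 CPM in DNase 3 and 0.721 to 0.840 CPM in the others, and the mitotic kinesin Kif20a had 4.31 CPM in DNase 3 and 3.26 to 3.42 CPM in the others. Ndc80 had 0.586 CPM in DNase 1 and 0.927 to 0.975 CPM in the others.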

How the results depend on the processing

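The direction of the median member change was the same under every alternative run. Members called in Lpr against Ctr numbered 36 with DESeq2, 36 with all 11 libraries in 1 fit, 13 with limma on log2(FPKM + 1), 11 above a log2 fold change of 2, and 7 to 26 with 1 kidney left out, where the median was 1.41 to 2.01. In DNase against Ctr they numbered 15 with all 11 libraries in 1 fit, 11 with the replicate block, 5 above a log2 fold change of 2, and 17 to 29 with 1 kidney left out, where the median was 0.93 to 1.43. The medians with limma on log2(FPKM + 1) were 0.73 and 0.48. Relative to leukocyte RNA, Lpr against Ctr gave 30 with T cell and 27 with macrophage genes as the reference and 14 to 26 with 1 kidney left out, and DNase against Ctr 21 to 42. The shares of all genes called under these alternatives are not given here, so the counts of members have no background beside them. Without the 2 farthest kidneys, 1 of the 34 relations passed in place of 0. The sign of Tyms between DNase and Lpr turned with limma on log2(FPKM + 1) (0.0298) and log2(FPKM + 0.1) (0.0428), and over kidneys left out it ranged from -0.15 to 0.12. Rrm2 between DNase and Ctr ranged from -0.16 to 0.22. The cause was not tested. Deviations from the group mean had a correlation of -0.28 to 0.16 between same-numbered kidneys and of -0.29 to 0.37 between others. The replicate block thus pairs kidneys by number alone, and it drops replicate 4 against Ctr. It gave 27 members in Lpr against Ctr and 0 between DNase and Lpr. With 3 controls and few counts per gene in Ctr, changes of the lowest members are imprecise.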
